A study of Mus musculus with 8 samples.

Results

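Amelx, Ambn and Enam encode amelogenin, ameloblastin and enamelin, the structural proteins that ameloblasts secrete to build the enamel matrix. They were found by gene name in the deposited table of reads per gene, where each has 1 row, and they are 3 of 54532 genes. All 3 passed the filter on low counts in both genotypes. RNA was sequenced from first molars of mouse pups whose pulp had been taken out, in 4 KO libraries (KO 1, 3, 4 and 5, genotype wdr72-/-) and 4 WT libraries (WT 2, 3, 4 and 5, wild type), both on C57BL/6. Pups were 12 days old by the characteristics and 13 days old by the text on dissection. Neither the deleted stretch of Wdr72 nor the number of pups behind a library is stated, so a p-value here reflects the spread between these libraries and nothing wider. The rest of the molar was homogenised whole, so cells other than ameloblasts could add RNA, and fewer cells of a type cannot be told apart from less RNA per cell.

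Enamel is laid down in a secretory stage, when tall ameloblasts release the matrix proteins, and hardens in a maturation stage, when proteases and endocytosis clear that matrix. Amelogenin is the most abundant matrix protein and assembles into nanospheres and ribbons. Ameloblastin also helps ameloblasts hold to the matrix, and enamelin, the largest of the set, is needed where mineral first forms. In mice the loss of any of them is known to disrupt enamel. WDR72, a WD40-repeat protein linked to vesicle traffic, acts in maturation, and its loss causes hypomaturation amelogenesis imperfecta. The comparison asks how the transcripts of the secretory matrix stand in maturing molars without WDR72.

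The libraries held 17084475 to 21887462 counted reads. Levels are CPM, the reads of a gene scaled to the size of its library after TMM, which corrects for the make-up of a library. Wdr72 itself was lower in every KO library, at 15.8 to 102 CPM, than in any WT library, at 173 to 327 CPM (edgeR log2 fold change -2.43, SE 0.47, adjusted p = 0.080), with KO 1 the highest of KO. Enamel epithelium was present by its markers, with all 12 other secretory-stage genes and 20 of 21 maturation-stage genes detected. Dentin and bone genes were present too, summing to 54338 to 85775 CPM over 12 genes in KO and 42472 to 81335 CPM in WT. Over all genes, edgeR's quasi-likelihood test called 5 of 16205 at an adjusted p of 0.05, or 0.0309% (0.0123% higher and 0.0185% lower in KO). An unadjusted p of 0.05 was met by 15.7%, and KO and WT values did not overlap in 10.9%. None of the matrix genes was called by edgeR, nor by DESeq2, which called 2.86% of all genes.

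Amelx (ENSMUSG00000031354) lies on chromosome X from 169176114 to 169187200, minus strand, with 6 or 7 exons in its annotated transcripts. Ambn (ENSMUSG00000029288, 11 exons) lies on chromosome 5 from 88455991 to 88468531, plus strand. Enam (ENSMUSG00000029286, 10 exons) starts 19.4 kb further along the same strand and runs from 88487975 to 88506049. Coordinates are on GRCm38, as in the deposited table. Amelx sits inside the span of Arhgap6, a GTPase-activating protein gene on the other strand, and shares 0 exonic bases with it in GENCODE M21. Arhgap6 held 0.268% as many reads as Amelx. The spans of Ambn and Enam overlap no other gene of the table.

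The proximal promoters are shown because the comparison turns on how far these genes move together, and because they share a stretch of letters. Each line is the 150 bases before the start site (RefSeq, GRCm38.p6), written 5′ to 3′ on the gene's own strand. Capitals mark TGATTGG, which holds a CCAAT box read on the other strand.
Amelx, chrX:169187210-169187359, minus strand: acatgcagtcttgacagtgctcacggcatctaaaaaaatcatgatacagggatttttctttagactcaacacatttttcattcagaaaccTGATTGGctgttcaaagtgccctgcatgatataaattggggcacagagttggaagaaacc
Ambn, chr5:88455841-88455990, plus strand: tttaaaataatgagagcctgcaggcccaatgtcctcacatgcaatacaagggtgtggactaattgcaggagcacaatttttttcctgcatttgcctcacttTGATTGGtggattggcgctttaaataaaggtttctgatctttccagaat
Enam, chr5:88487825-88487974, plus strand: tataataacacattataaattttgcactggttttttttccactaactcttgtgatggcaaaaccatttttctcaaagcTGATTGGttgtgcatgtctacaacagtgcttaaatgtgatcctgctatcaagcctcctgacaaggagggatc

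TGATTGG begins 60 bases before the start of Amelx, 49 before that of Ambn and 72 before that of Enam, on the gene's own strand in each. It was picked after the sequences were read. On either strand it is found in 5.71% of 32851 mouse promoter windows of the same length. CCAAT alone, read on both strands and counted again where it lies within TGATTGG, is in 24.5% of the windows and in all 3 of these. TATAAA, the core of a TATA box, is in 7.57% of the windows. It begins 31 bases before the start of Amelx, where a TATA box usually sits, and 137 bases before that of Enam, and these letters are not in the Ambn window. TGTGGT, a core bound by RUNX factors, is in 8.40% of the windows and in none of the 3. A match describes the sequence and does not show a bound site.

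Per kb of gene length the order was the same in every library, with Ambn above Amelx and Amelx far above Enam. Ambn averaged 18632 ± 2911 CPM per kb in KO and 20147 ± 6444 CPM per kb in WT (SD, n = 4 each). Amelx averaged 7995 ± 2291 CPM per kb in KO and 5428 ± 1935 CPM per kb in WT. Enam averaged 62.7 ± 61.5 CPM per kb in KO and 23.6 ± 24.04 CPM per kb in WT. The ranges of the genes did not meet, since the lowest Ambn value was 13064 CPM per kb, the highest Amelx value 10578 and the highest Enam value 152. Together the genes took from 3.29% (KO 4, 95% Wilson interval 3.29% to 3.30%) to 4.77% (KO 3, 4.76% to 4.78%) of the reads in KO. In WT they took from 3.01% (WT 5, 2.998% to 3.014%) to 6.16% (WT 4, 6.15% to 6.17%). Intervals cover counting error only.

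**Figure D1:**
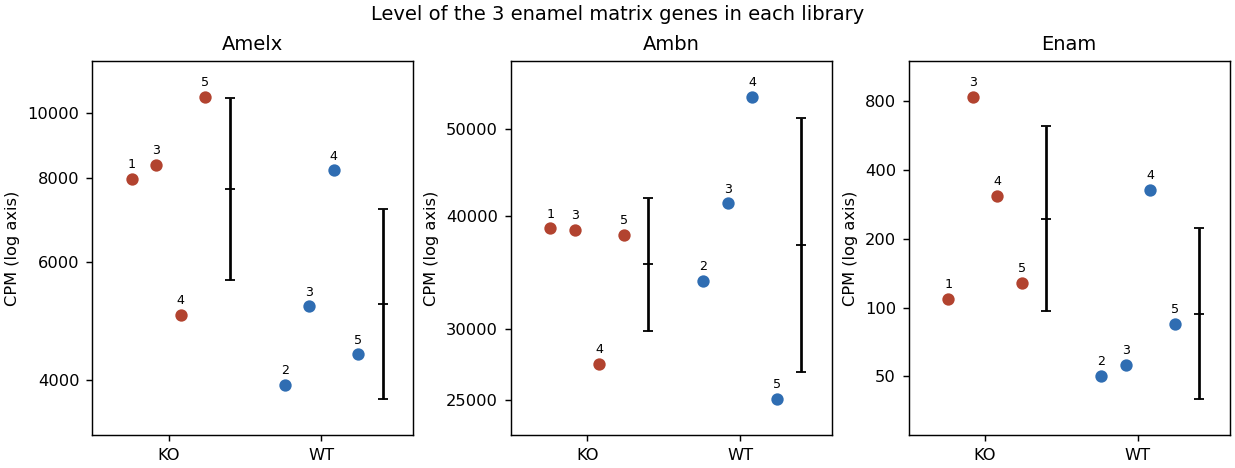
CPM of Amelx, Ambn and Enam in each library on a log axis, KO left of WT, each point numbered by its replicate; black bars are the mean ± SD of log2 CPM over 4 libraries. The genotypes overlap for each gene, KO 4 is the lowest KO library for Amelx and Ambn, WT 4 the highest WT library for all 3 genes, and Enam runs from 50.2 to 832 CPM.

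Amelx, the amelogenin gene, was at 7992, 8385, 5004 and 10567 CPM in KO 1, 3, 4 and 5, and at 3941, 5155, 8223 and 4373 CPM in WT 2, 3, 4 and 5. WT 2, WT 3 and WT 5 lay close together at the low end, WT 4 lay among the KO libraries, and KO 4 lay among the lower WT libraries. The means were 7987 ± 2289 CPM in KO and 5423 ± 1933 CPM in WT (SD, n = 4 each), a log2 fold change of 0.56 (SE 0.27). The difference did not pass (edgeR adjusted p = 0.34, exact permutation p = 0.17, two-sided over 70 arrangements). Of the 16 pairings of a KO with a WT library, 13 had the higher level in KO.

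Amelx is X-linked, and Xist, the RNA of the inactive X, also varied between the libraries. Xist was at 249, 191, 356 and 177 CPM in KO 1, 3, 4 and 5, and at 803, 839, 251 and 658 CPM in WT 2, 3, 4 and 5. WT 4, the WT library with the most Amelx, had the least Xist of WT, and KO 4, the KO library with the least Amelx, had the most Xist of KO. With log2 Xist as a covariate the log2 fold change of Amelx turned to -0.23 (edgeR adjusted p = 0.96), that of Ambn, which is not X-linked, became -0.59 (adjusted p = 0.95), and that of Enam 0.18 (adjusted p = 0.99). Xist averaged 243 ± 81.4 CPM in KO and 637 ± 269 CPM in WT, a log2 fold change of -1.39 (SE 0.34). The difference was large in edgeR before adjustment (unadjusted p = 0.0014) but did not pass (edgeR adjusted p = 0.12), and the values overlapped. The covariate shares part of its variation with genotype, and their parts in this shift cannot be told apart.

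Ambn, the ameloblastin gene, was at 38787, 38683, 27385 and 38163 CPM in KO 1, 3, 4 and 5, and at 33927, 41358, 54293 and 25069 CPM in WT 2, 3, 4 and 5. KO 1, KO 3 and KO 5 were nearly equal and KO 4 stood below them, while the WT libraries spread on both sides of the KO values. The means were 35755 ± 5586 CPM in KO and 38662 ± 12366 CPM in WT, a log2 fold change of -0.11 (SE 0.25), far from the threshold (edgeR adjusted p = 0.84, exact permutation p = 0.91). The sign was not stable, at 0.088 without WT 4.

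Enam, the enamelin gene, was at 109, 832, 308 and 128 CPM in KO 1, 3, 4 and 5, and at 50.2, 56.3, 326 and 84.8 CPM in WT 2, 3, 4 and 5. One library of each genotype stood high, KO 3 and WT 4, and KO 4 was close to WT 4. The highest library exceeded the lowest 7.63-fold within KO and 6.50-fold within WT. The counts behind these levels were 1994, 18142, 6692 and 2464 reads in KO and 906, 1179, 6868 and 1501 reads in WT, so counting error was at most 3.32% of a value. The means were 344 ± 337 CPM in KO and 129 ± 132 CPM in WT, a log2 fold change of 1.41 (SE 0.81). It did not pass (edgeR adjusted p = 0.41, exact permutation p = 0.20). The estimate hung on single libraries, at 0.49 without KO 3 (edgeR adjusted p = 0.74) and 2.43 without WT 4 (edgeR adjusted p = 0.21). In limma voom, which weights libraries by quality, Enam was higher in KO at 2.06 (SE 0.54, adjusted p = 0.040), where 6.62% of all genes were called.

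The spread of Enam between libraries of 1 genotype was among the largest in the data. Its pooled SD was 1.29 on the log2 CPM scale, and of 11439 genes with a mean of at least 5 CPM only 5 had a larger one. The median gene of that level had an SD of 0.20. Amelx, at 0.46, was exceeded by 373 of these genes, and Ambn, at 0.38, by 987. All 3 genes thus varied more between like libraries than most genes with a mean of at least 5 CPM, a set not matched to their own levels.

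**Figure D2:**
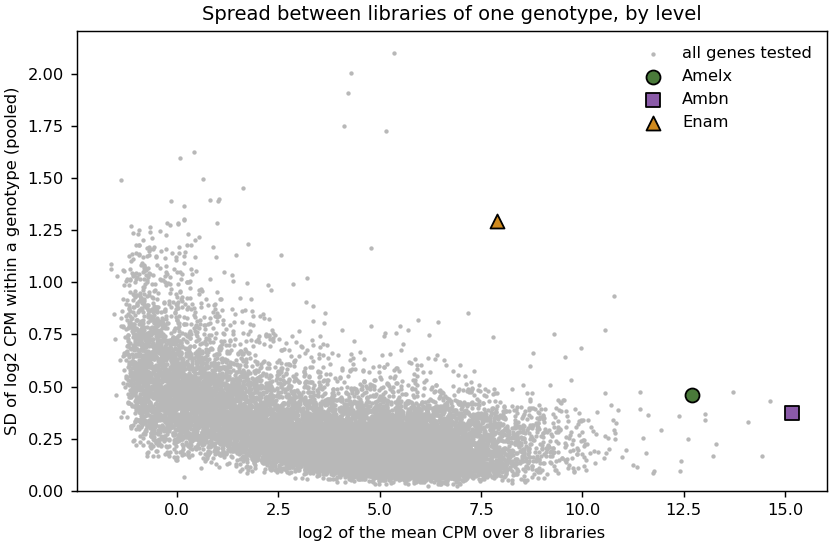
Pooled SD of log2 CPM within a genotype (vertical) against the log2 of the mean CPM over 8 libraries (horizontal), for 16205 genes, with the 3 enamel matrix genes marked. Enam, at an SD of 1.29, stands above nearly all genes with a mean of at least 5 CPM. Of these 11439 genes, 373 had a larger SD than Amelx (0.46) and 987 a larger one than Ambn (0.38).

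Within a library the ratio of Amelx to Ambn separated the genotypes, although neither gene did alone. For each Ambn read per kb there were 0.396, 0.416, 0.351 and 0.532 Amelx reads per kb in KO 1, 3, 4 and 5, and 0.223, 0.239, 0.291 and 0.335 in WT 2, 3, 4 and 5. Every KO value was above every WT value, with KO 4 and WT 5 closest to each other. The log2 ratio averaged -1.26 ± 0.25 in KO and -1.90 ± 0.27 in WT (SD, n = 4 each), a difference of 0.64. The exact permutation p was 0.0286, the smallest that 4 against 4 libraries can give, and 0.086 adjusted over the 3 ratios, which did not pass. The adjusted value also depends on the ratios that hold Enam, whose exact permutation p values were 0.17 and 0.34. The difference ran from 0.53 to 0.75 when each library was left out in turn. Among all 16204 other genes set against Ambn in the same way, 0.932% had every KO ratio above every WT ratio, and 1.24% did not overlap in either direction. Amtn, a neighbour of Ambn described below, also had every KO ratio above every WT ratio. The level of Ambn enters each of these ratios, so the shares hold for ratios to Ambn only.

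The ratios that hold Enam did not separate the genotypes. There were 1017, 133, 254 and 852 Ambn reads per kb for each Enam read per kb in KO 1, 3, 4 and 5, and 1935, 2103, 476 and 845 in WT 2, 3, 4 and 5. KO 3 and KO 4 held the most Enam for their Ambn, while KO 1 and KO 5 fell between WT 5 and WT 2. The log2 ratio of Enam to Ambn averaged -8.69 ± 1.41 in KO and -10.14 ± 1.02 in WT, a difference of 1.45 (exact permutation p = 0.17, 0.26 adjusted over the 3 ratios), which was 0.91 without KO 3. For Enam against Amelx the log2 ratio averaged -7.44 ± 1.53 in KO and -8.25 ± 0.83 in WT, a difference of 0.81 (exact permutation p = 0.34, adjusted p = 0.34). Single libraries moved it widely, to 0.26 without KO 3, 0.49 without KO 4, 1.22 without KO 1 and 1.27 without KO 5.

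**Figure D3:**
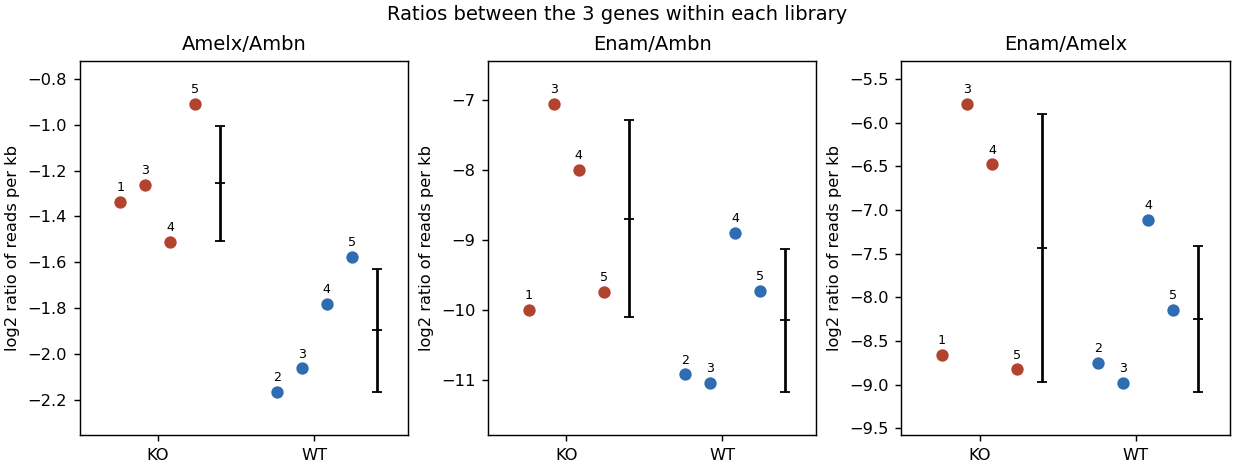
Log2 ratio of reads per kb between each pair of genes, by library, KO left of WT, points numbered by replicate and black bars the mean ± SD over 4 libraries. Only in the panel of Amelx over Ambn do all KO points lie above all WT points, KO 4 at -1.51 and WT 5 at -1.58 being the closest.

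Within a genotype the levels of Amelx and Ambn ran closest together, though the difference between the correlations was not tested. Measured from the mean of its genotype, KO 4 was low for both (-0.62 for Amelx and -0.37 for Ambn, log2 CPM) and WT 4 was high for both (0.66 and 0.55). On these deviations Pearson's r was 0.83 between Amelx and Ambn (exact permutation p = 0.035 within genotype, 0.10 adjusted over 3 pairs; Spearman's coefficient 0.69, p = 0.073, adjusted p = 0.22). Over the 8 libraries as they stand it was 0.61 (exact permutation p = 0.12, adjusted p = 0.27; Spearman's coefficient 0.52, p = 0.20, adjusted p = 0.29), and 0.75 without KO 5 and WT 2 (exact permutation p = 0.11), the libraries farthest from the median of Amelx. A library gives all its values from the same RNA, so these points share depth and cell make-up.

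Enam followed the others in WT 4, where all 3 genes were at their WT maximum, but not in KO. KO 3, at 1.77 above the KO mean for Enam, was only 0.12 above it for Amelx and 0.13 for Ambn, and KO 4, low for both, was 0.33 above the mean for Enam. Pearson's r over the 8 libraries was 0.52 between Enam and Amelx (exact permutation p = 0.18, adjusted p = 0.27; Spearman's coefficient 0.69, p = 0.069, adjusted p = 0.21). Without KO 3 and WT 4, the libraries farthest from the Enam median, it was 0.31 (exact permutation p = 0.55). Between Enam and Ambn, close neighbours on chromosome 5, r was 0.21 (exact permutation p = 0.62, adjusted p = 0.62; Spearman's coefficient 0.24, p = 0.58, adjusted p = 0.58). It was -0.39 without KO 3 and WT 4 (exact permutation p = 0.45). On the deviations from the genotype means r was 0.31 for both pairs with Enam (exact permutation p = 0.45 each).

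**Figure D4:**
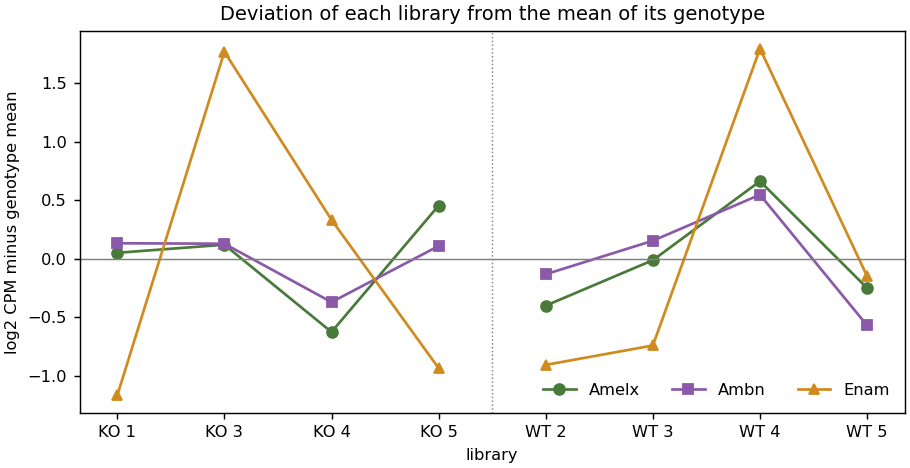
Deviation of log2 CPM from the mean of the library's own genotype, for Amelx, Ambn and Enam in each of the 8 libraries. Amelx and Ambn take the same side of 0 in most libraries, both low in KO 4 and both high in WT 4, while Enam is far above 0 in KO 3 (1.77) and WT 4 (1.79) and below it in KO 1 and KO 5.

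The chromosome 5 neighbours ranged less between libraries than Enam. Of the 8 other protein-coding genes within 250 kb of Ambn or Enam, 5 passed the filter. Amtn, which encodes amelotin of the maturation-stage basal lamina and belongs to the same phosphoprotein gene family, was at 5890, 5417, 4557 and 6485 CPM in KO and at 4551, 5443, 7044 and 3303 CPM in WT. Like Ambn it was lowest of KO in KO 4, highest of WT in WT 4 and lowest of WT in WT 5, and its log2 fold change was 0.14 (SE 0.23, edgeR adjusted p = 0.79). On the far side of Enam, Utp3, Rufy3 and Grsf1 had log2 fold changes of 0.020, 0.028 and -0.069, and Mob1b, a Hippo pathway adaptor, of -0.37 (SE 0.12, edgeR adjusted p = 0.19).

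Genes with the pattern most like each member were taken from 11180 protein-coding genes with a mean of at least 5 CPM, by Pearson's r of log2 CPM over the 8 libraries, from the 5 highest and 3 lowest. High values are certain to turn up in such a search, so r is given only as a description. For Enam they included Chst1, a keratan sulfate sulfotransferase (r = 0.98), Wdr60, a subunit of the ciliary dynein (0.95), Slc25a23, a mitochondrial carrier (0.94), and Pi15, a peptidase inhibitor (0.94). Chst1 was at 5.96, 19.0, 9.67 and 7.02 CPM in KO 1, 3, 4 and 5, and at 3.82, 3.82, 11.6 and 3.73 CPM in WT 2, 3, 4 and 5. It was thus high in KO 3 and WT 4, as Enam was. The genes most opposed were Tmem79, an epidermal lamellar granule protein (-0.98), Tbpl1 (-0.97) and Mex3b (-0.96).

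For Ambn the closest was Mark3, a kinase of microtubule regulation (r = 0.98), and the others were Calb1 (0.97), Trp53inp2 (0.97), Hemgn (0.96) and Akain1 (0.96). Calb1 encodes calbindin, a cytosolic calcium buffer abundant in ameloblasts. It was at 2828, 2680, 1900 and 2820 CPM in KO 1, 3, 4 and 5, and at 2096, 3015, 4657 and 1799 CPM in WT 2, 3, 4 and 5, the same order of the WT libraries as Ambn. Slc26a11 (-0.95) and Atg16l1 (-0.94) ran opposite to Ambn.

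For Amelx the closest were Tspan5 (r = 0.97), Atp6v0d1, a V-ATPase subunit (0.96), Tsku, a secreted leucine-rich protein (0.96), Prnp (0.96) and Eif3l (0.96). Prkaa1, Wdsub1 and Prkg2 ran opposite (-0.97, -0.97 and -0.96). By this measure Ambn stood at rank 1566 and Enam at rank 2361 of the 11179 other genes in closeness to Amelx. In closeness to Ambn, Amelx stood at rank 623 and Enam at rank 3270. In closeness to Enam, Amelx stood at rank 877 and Ambn at rank 3223.

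Of the 12 other secretory-stage genes, all tested, 7 had a higher and 5 a lower level in KO. Their median log2 fold change was 0.040 against 0.021 for all genes, and 0 passed in edgeR. An unadjusted p of 0.05 was met by 1 of the 12, against 15.7% of all genes, and KO and WT did not overlap for 2 of the 12, against 10.9% of all genes. Mmp20, the protease that cuts the secreted matrix, was at 340 ± 51.7 CPM in KO and 330 ± 64.7 CPM in WT. Fam20c, the kinase that phosphorylates enamel proteins, was at 179 ± 16.8 CPM in KO and 157 ± 21.8 CPM in WT, and its partner Fam20a at 111 ± 20.9 CPM in KO and 103 ± 18.6 CPM in WT. Acp4, a phosphatase needed for enamel, was at 355 ± 91.2 CPM in KO and 330 ± 62.6 CPM in WT. Itgb4, a hemidesmosome integrin, was the member at an unadjusted p of 0.05, with a log2 fold change of 0.37 (SE 0.11, edgeR adjusted p = 0.18). It did not overlap between the genotypes, and nor did Slc10a7, a Golgi membrane protein whose loss impairs bone and enamel (-0.21, SE 0.10, edgeR adjusted p = 0.33).

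Among 20 maturation-stage genes the level in KO was higher for 7 and lower for 13, and the median of their log2 fold changes was -0.19. In edgeR 0 passed, and 3 of the 20 met an unadjusted p of 0.05, against 15.7% of all genes. For Klk4, whose protease removes matrix proteins, the log2 fold change was -0.17 (SE 0.17), and for Odam, a basal lamina protein, -0.082 (SE 0.18). The smallest p values were those of Odaph, an enamel mineralisation protein (1.04, SE 0.20, edgeR adjusted p = 0.080), Itgb6 (-0.76, SE 0.26) and Slc26a7, an anion exchanger (-0.60, SE 0.22).

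Transcription factors of enamel epithelium and amelogenin-binding proteins also held 0 genes past the threshold in edgeR. Of the factors 9 of 13 had a higher level in KO, and their median log2 fold change was 0.14. An unadjusted p of 0.05 was met by 3 of the 13, against 15.7% of all genes. The 3 were Cebpb (0.65, SE 0.23, edgeR adjusted p = 0.23), Lef1 (0.48, SE 0.16, adjusted p = 0.22) and Foxo1 (-0.36, SE 0.14, adjusted p = 0.26). Runx2, Dlx3, Msx2 and Sp6, which act in ameloblast differentiation, had log2 fold changes of 0.26, -0.060, 0.12 and 0.14. The 4 genes whose proteins are reported to bind amelogenin had a median of 0.14, and 0 were at an unadjusted p of 0.05. Cd63, a tetraspanin of endosomes, was at 385, 292, 393 and 705 CPM in KO and 319, 335, 308 and 347 CPM in WT.

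Other secretory phosphoprotein genes, the family of Amelx, Ambn and Enam, had a higher level in KO for 5 of 8 tested members. This leaves out Sparc and Sparcl1, relatives outside the family that the list also held (6 of 10 with them). The median was 0.28 on the log2 scale with or without them, and 0 passed in edgeR. An unadjusted p of 0.05 was met by 3 of the 8, against 15.7% of all genes. These were Csn3, Odaph, which is also counted among the maturation-stage genes, and Ibsp, which is also counted among the dentin and bone genes. Csn3, kappa-casein, was at 67.9, 145, 102 and 138 CPM in KO 1, 3, 4 and 5, and at 41.0, 35.1, 114 and 42.1 CPM in WT 2, 3, 4 and 5. In WT it was high only in WT 4, as Enam was. In KO both were highest in KO 3, but Csn3 in KO 5 was close to that level. Enam was at 128 CPM in KO 5 against 832 CPM in KO 3. Dspp, which encodes the precursor of dentin sialoprotein, averaged 13052 ± 4135 CPM in KO and 13685 ± 5138 CPM in WT.

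The part of other cell types in the levels of the matrix genes was not tested, and the levels of their markers are given here. The lists here and above were chosen with earlier results of these data known, and some lists share genes. Their counts are thus a description and no test against the shares over all genes. Of all 16205 genes tested, 8607 had a higher level in KO. An unadjusted p of 0.05 was met by 15.7% of them in edgeR, and 0.0309% passed. Oral keratinocyte genes were lower in KO in 12 of 12, summing to 574 to 829 CPM in KO and 713 to 1349 CPM in WT. Krt1 and Spink5 passed in edgeR, and 10 of the 12 met an unadjusted p of 0.05. Pulp and follicle mesenchyme genes had a higher level in KO in 11 of 12, summing to 5286 to 7664 CPM in KO and 3398 to 5444 CPM in WT. None of them passed in edgeR, and 9 met an unadjusted p of 0.05. Leukocyte genes had a higher level in 10 of 11, summing to 208 to 314 CPM in KO and 182 to 193 CPM in WT, with 0 calls in edgeR and an unadjusted p of 0.05 met by 5. Dentin and bone genes were higher in 9 of 12, Smpd3 passed in edgeR, and 5 of the 12 met an unadjusted p of 0.05. Stratum intermedium genes had a higher level in 6 and a lower one in 5 of 11, summing to 8297 to 9219 CPM in KO and 7965 to 8689 CPM in WT, with 0 calls in edgeR and an unadjusted p of 0.05 met by 4. KO 5, the library with the most Amelx, also stood apart over all genes, with a mean correlation of 0.964 with the other libraries against 0.980 to 0.983 for the rest. Without it the log2 fold change of Amelx was 0.39 (edgeR adjusted p = 0.55).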

How the data were processed

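The authors deposited 1 table of counts, whole numbers of reads per Ensembl gene and library, with gene lengths and coordinates, per the file headers. RNA was captured by polyA, fragmented and reverse transcribed, per the labels' protocols. CASAVA and mm39 are named in the submitters' processing notes. Of the table's IDs, 54409 are in GENCODE M21 (GRCm38) and 98.8% of these share its start, so coordinates are given on GRCm38. Which aligner and counter were used, and whether strand was used, was not given in those sources.

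Genes were kept by filterByExpr (minimum count 10, minimum total 15), which left 16205. The genotypes were compared on the whole table with the quasi-likelihood test of edgeR (version 4.0.16 in R 4.3.3, TMM, robust, no covariate), with Benjamini-Hochberg adjustment over all genes and a threshold of 0.05. A positive log2 fold change means a higher level in KO, and its SE is its size over the root of F. The scripts were tested on simulated data. Log2 CPM used a prior count of 2. Ratios and correlations between members were tested by exact permutation, two-sided, over 70 arrangements of the libraries, all 40320 pairings, or 576 pairings within genotype. Promoters are from RefSeq's table, which held all 3 members.

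Named genes were the members, Wdr72, Xist, genes overlapping or near a member, the genes closest in pattern, and from each list the 3 smallest p values, those past the threshold and a fixed set. Not every gene the rule allows is printed, and some of those closest in pattern are not reported here. Members, lists and the rule were chosen with earlier results of these data known, and motifs after the promoters were read. Alternatives were other scalings, DESeq2 1.42.0, limma voom 3.58.1, no filter, Xist as a covariate, a replicate block and libraries left out.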

Additional observations from a re-analysis of the deposited data

Results flagged for a closer look

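Among groups of 4 libraries, a library was singled out where its gap to the nearest other, over the group's range, exceeded Dixon's 95% critical value. This was checked in 124 groups of values and met in 18. In unselected groups chance meets it in about 1 in 20, but the groups here include genes chosen for following Enam or Ambn, so the 18 cannot be set against that share. WT 4 was the library in 9 of the 18.

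Among the matrix genes, KO 4 was low for Ambn at 27385 CPM against 38163 to 38787 in the other KO libraries, and WT 4 was high for Enam at 326 CPM against 50.2 to 84.8 in the other WT libraries. Mark3 (126 CPM) and Calb1 (1900 CPM), 2 of the genes closest in pattern to Ambn, were low in KO 4, as was Smpd3 (62.8 CPM). WT 4 was high for genes closest in pattern to Enam, Chst1 (11.6 CPM), Wdr60 (36.2 CPM), Slc25a23 (40.5 CPM) and Pi15 (37.4 CPM), genes chosen by these same values. It was also high for Csn3 (114 CPM), Slc26a7 (404 CPM) and Krt1 (18.9 CPM), and low for Fam20a (75.3 CPM). WT 5 was high for Col1a1 (32304 CPM) and low for Odam (17863 CPM) and Mob1b (78.2 CPM). KO 5 was high for Cebpb (31.5 CPM), and WT 2 for Slc10a7 (30.3 CPM).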

How the results depend on the processing

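The log2 fold changes ran from 0.39 to 0.82 for Amelx, from -0.27 to 0.088 for Ambn and from 0.49 to 2.43 for Enam when each library was left out in turn. Amelx turned to -0.23 with the Xist covariate, Ambn changed sign without WT 4 (0.088), and Enam passed with limma voom (2.06). Under the other alternatives run, the 3 genes kept their sign and stayed short of the threshold. The 3 log2 ratios kept their sign in 10 alternatives each, and with each library left out the differences ran from 0.53 to 0.75 for Amelx to Ambn, 0.91 to 1.88 for Enam to Ambn and 0.26 to 1.27 for Enam to Amelx. The correlation of Enam with Ambn ran from -0.0051 to 0.41 with each library left out, and was -0.39 without KO 3 and WT 4.

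Over all genes the 5 calls became 2 with library totals, 464 with DESeq2, 1073 with limma voom, 241 with no filter (edgeR), 1 with the Xist covariate, 11 without KO 1 and KO 5, and 0 to 55 with each library left out. The count was 0 in edgeR without KO 3, KO 4, WT 2 or WT 3, where 3139, 2622, 1744 and 1720 genes had an unadjusted p under 0.05. The causes were not tested. Deviations of same-numbered libraries had correlations of -0.14, -0.092 and -0.12 for numbers 3, 4 and 5. Between libraries of unlike number they ran from -0.235 to 0.274. Values of this size cannot decide whether the numbers are a pairing, and the labels do not say. With the replicate block on the 6 libraries numbered 3, 4 and 5 there was 1 call. The log2 fold changes were 0.43 for Amelx, -0.16 for Ambn and 1.34 for Enam. Without a block on the same libraries there was 1 call, and the log2 fold changes were 0.43, -0.21 and 1.44. The smallest count behind a level of the 3 genes was 906 reads, and counting error was at most 3.32% of a value.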
